A study of Zea mays with 10 samples.

Results

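Endosperm of maize kernels at 7 days after pollination (DAP) was compared with endosperm at 6 DAP by bulk RNA-seq, with 3 replicate libraries at each stage. These 6 libraries are all the replicated ones among 10 bulk libraries. The other 4 hold 1 library a stage of undigested endosperm and of protoplasts, which are cells freed from their walls by enzymes, and serve here only as a second look at each stage. Plants at 7 DAP and at 6 DAP were both wild type of the inbred line B73, grown in a greenhouse with no treatment named, and each sample was total RNA from 20 pooled endosperms. A pool averages over kernels and cell types, so in this tissue fewer cells of a type and less RNA per cell cannot be told apart. By the study's methods the 3 pools of a stage were biological replicates, each tied to a different ear. If so, the p-values measure the spread between such pools. That spread was small, as replicate pairs had a chi-square per degree of freedom of 1.67 to 3.65, where sampling of reads alone gives about 1.

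All genes with enough counts are described, which were 21486 of the 45953 genes in the deposited count table. Most of the text concerns changes under 4-fold and the functions and compartments they belong to. The gene lists were put together from the study's supplementary annotation and hold cluster markers, regulon targets and pathway genes rather than complete gene families. Expression is given as CPM, the counts of a gene scaled to a common library size, with sizes adjusted by the trimmed mean of M values (TMM), and CPM also depends on gene length, so levels are compared between stages and not between genes. A gene was called when the adjusted p of edgeR's quasi-likelihood test was under 0.05.

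The endosperm is the triploid tissue that feeds the embryo. It starts as a syncytium, becomes cellular within days of fertilization, and divides quickly while its main cell types take shape. These are the aleurone layer (AL), the basal endosperm transfer layer (BETL) that takes up sugar from the mother plant, the embryo surrounding region (ESR), the endosperm adjacent to scutellum (EAS) and the starchy endosperm (SE). Later the SE stops dividing, stores starch and zein proteins, and dies. Growing plant cells spend much of their RNA on ribosomal proteins, translation factors, histones and the enzymes of glycolysis, the pathway from sugar to pyruvate. Sucrose synthase opens the way to starch by splitting imported sucrose.

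The libraries held between 15911047 and 24311056 counts, and replicates of a stage correlated across genes at r of 0.998. Markers of AL, ESR, EAS, SE and BETL were all detected at both stages, so the tissue label was met by its markers. Other tissues were present or changed as well. The nucellus marker Zm00001d046765 had 11.9, 11.3 and 12.6 CPM at 7 DAP, against 5.5, 3.78 and 6.42 CPM at 6 DAP. The 4 oil body and globulin genes used to mark the embryo, none of them at 0 in any stage, summed to 543, 554 and 570.4 CPM at 7 DAP, against 71.9, 68.6 and 65.2 CPM at 6 DAP. The embryo markers and the nucellus marker were thus higher in every 7 DAP library than in any 6 DAP library. Aleurone cells also make oil bodies and globulins, and the part of embryo or nucellus RNA in the results below was not tested.

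A single day separated the stages, and most of the tested transcriptome moved a little. Of 21486 genes, 12092 were called, a background of 56.3%, with 6067 higher (28.2%) and 6025 lower (28.0%) at 7 DAP. The common coefficient of biological variation was 4.14%, so small differences passed the test. Changes under 4-fold made up 94.7% of the calls, and changes under 2-fold made up 83.0%. Among the 11450 calls under 4-fold, 10997 had stages that did not overlap, beside 61.8% of all tested genes. Call and overlap rest on the same libraries, so the overlap describes the calls here and below and adds no support to them. Genes named as the largest rises or falls of a list were also picked for stages that do not overlap.

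The small and the moderate changes had different directions. Below a log2 change of 0.5, 2694 genes were higher and 4337 were lower at 7 DAP. From 0.5 to 1 the numbers were 1783 higher and 1218 lower. Between 2- and 4-fold, 1045 genes were higher (4.86% of those tested) and 373 were lower (1.74%), and 1393 of these 1418 genes had stages that did not overlap. The shares depended on scaling. Dividing by library totals alone moved the median of all genes by 0.12 on the log2 scale, with 66.8% of the calls higher at 7 DAP in place of 50.2%. For the 2- to 4-fold calls the higher share was 79.4% with library totals and 73.7% with TMM.

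Weighted by abundance, changes under 2-fold moved more counts than the extreme genes, in both directions. Genes with a fall under 0.5 on the log2 scale took 37.9% of all counts at 7 DAP, against 42.7% at 6 DAP. Genes with a rise under 0.5 took 16.9% at 7 DAP, against 13.2% at 6 DAP. For changes of 0.5 to 1, genes that fell took 11.2% at 7 DAP, against 15.9% at 6 DAP, and genes that rose took 7.46% at 7 DAP, against 4.31% at 6 DAP. Shares of a fixed total must nearly balance between rises and falls. The 545 genes that rose 4-fold or more took 1.91% at 7 DAP, against 0.297% at 6 DAP. The 97 genes that fell 4-fold or more took 0.0727% at 7 DAP, against 0.305% at 6 DAP. In each of these classes the 3 libraries of a stage stood apart from the 3 of the other. The classes hold genes called in these same libraries, so that separation was set by the choice of genes. The exact two-sided permutation p of 0.1, the smallest that 3 against 3 can give, is therefore no test of the classes. The classes under 2-fold each moved more of the counts than the classes of 4-fold and more did.

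**Figure D1:**
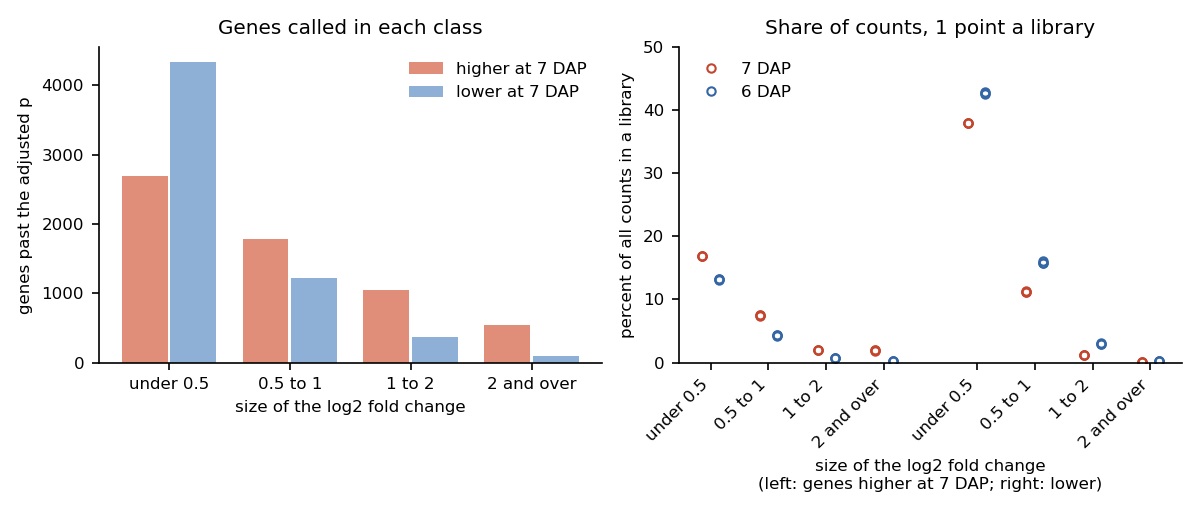
Number of genes called in each class of log2 change (left, bars, higher and lower at 7 DAP) and the share of all counts those genes took in each library (right, percent, 1 point a library, 7 DAP in red left of 6 DAP in blue). Genes with a fall under 0.5 took 37.9% of counts at 7 DAP and 42.7% at 6 DAP, genes with a rise under 0.5 took 16.9% and 13.2%, and genes that rose 4-fold or more took 1.91% and 0.297%.

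Abundant genes fell more often than they rose, and scarce genes rose more often than they fell. Of 2263 genes with a mean of 100 to 1000 CPM, 18.1% were higher and 68.4% were lower at 7 DAP, and their median log2 change was -0.23. Of the 44 genes at 1000 CPM and over, 29.5% were higher and 68.2% lower. In the 6811 genes between 1 and 10 CPM the order was turned round, with 32.7% higher and 11.5% lower and a median of 0.18. The 10783 genes between 10 and 100 CPM lay between these, with 27.2% higher and 32.9% lower and a median of -0.02, which became 0.09 with library totals. The medians of the other classes kept their sign with library totals. Called genes under 4-fold had a median level of 14.3 CPM when higher and 48.6 CPM when lower at 7 DAP. The gene lists below were not matched for abundance. Falls in lists of abundant genes are therefore to be read beside these shares as well as beside the share over all genes.

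**Figure D2:**
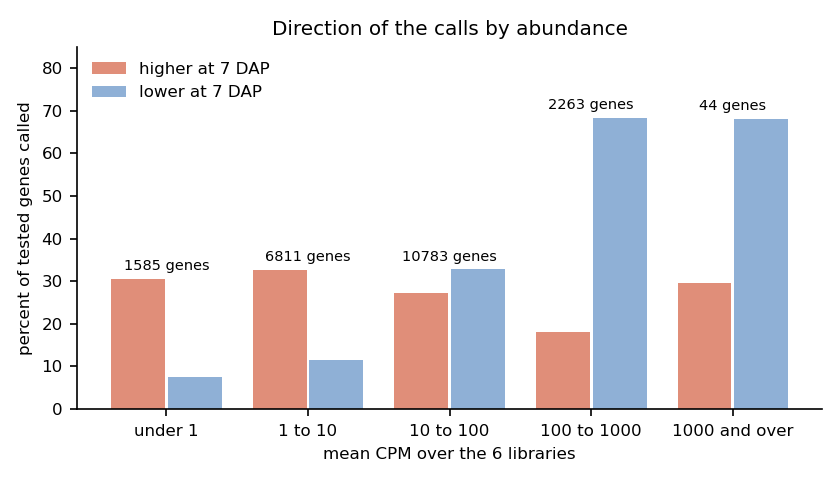
Percent of tested genes called higher (red bars) and lower (blue bars) at 7 DAP, by mean CPM over the 6 libraries (number of genes above the bars). Higher calls were 32.7% and lower calls 11.5% at 1 to 10 CPM, against 18.1% higher and 68.4% lower at 100 to 1000 CPM.

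The machinery of protein synthesis was lower at 7 DAP across nearly all its measured members, and by similar amounts. Of 148 genes for ribosomal proteins of the cytosolic large and small subunits, 0 rose (0 also at an unadjusted p under 0.05 in edgeR and 0 in DESeq2) and 146 fell, beside a background of 28.0% of tested genes lower. None fell 2-fold. The median log2 change was -0.52 (range -0.91 to 0.15), beside 0.02 over all tested genes. Together these 148 genes took 3.67% ± 0.0134 of the counts at 7 DAP, against 4.82% ± 0.0448 at 6 DAP (SD, n = 3 each).

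Summed over the large subunit, the level was 22234, 22526 and 22511 CPM in the 7 DAP libraries, against 31234, 31432 and 32256 CPM in the 6 DAP libraries. Summed over the small subunit, it was 12882, 12903 and 12838 CPM at 7 DAP, against 18464, 18485 and 18861 CPM at 6 DAP. Both sums were lower in each 7 DAP library than in each 6 DAP library, with gaps far wider than the spread within a stage. The largest fall was that of 1d031701 (Zm00001d031701), a homolog of large subunit protein L38, with 52.2, 53.7 and 56.7 CPM at 7 DAP, against 99.7, 99.1 and 108 CPM at 6 DAP, a log2 change of -0.91 ± 0.045 (SE, adjusted p = 3.54e-13, edgeR). In the small subunit, 1d009000 (Zm00001d009000), a homolog of S15a, had 161, 162 and 161 CPM at 7 DAP, against 292, 286 and 303 CPM at 6 DAP, a log2 change of -0.87. The stages did not overlap in either gene.

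Elongation factors, which bring aminoacyl-tRNA to the ribosome and move it along, fell further. All 17 tested were lower, with a median of -0.68. ELFA9, an elongation factor 1-alpha gene, had 1893, 1889 and 1876 CPM at 7 DAP, against 2788, 2802 and 2900.2 CPM at 6 DAP, a log2 change of -0.59 ± 0.016 (adjusted p = 2.50e-17, edgeR). ELFA10 had 336, 335 and 337 CPM at 7 DAP, against 639, 654 and 682 CPM at 6 DAP, a log2 change of -0.97. The ELFA genes are near copies of one another and reads that map to several genes were not counted, which leaves the level of each single copy uncertain. Among 21 initiation factors, which place the ribosome at the start of a message, 1 rose and 15 fell. EIF4A, the RNA helicase of initiation, had 616, 613 and 599.6 CPM at 7 DAP, against 862, 899 and 899 CPM at 6 DAP, a log2 change of -0.54. Ribosomes of mitochondria and plastids followed, with 13 of 14 listed genes lower and a median of -0.33.

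Genes that make ribosomes were lower along with the ribosomal proteins. Of 26 genes for rRNA processing 25 fell (median -0.49), of 16 preribosome genes 16 fell (median -0.48), and of 54 nucleolus genes 49 fell and 2 rose (median -0.43). These lists overlap, since 13 of the 26 rRNA processing genes and 12 of the 16 preribosome genes are also nucleolus genes. HDT104, a plant-type histone deacetylase of the nucleolus list, had 119.9, 125 and 125 CPM at 7 DAP, against 188, 195 and 212 CPM at 6 DAP. All 3 libraries at 7 DAP lay below those at 6 DAP, with a log2 change of -0.68. Spliceosome genes changed less, with 18 of 23 lower, 1 higher and a median of -0.19. Over the ribosomal proteins, initiation and elongation factors, organellar ribosome and ribosome-making lists together, 244 of 258 genes fell, 3 rose and 0 fell 2-fold.

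The chromatin and replication lists were lower as well, whereas lists of the later cell cycle were not. Nucleosomes are the histone spools on which DNA is wound, and their genes are read mostly while DNA is copied. Of 42 tested nucleosome genes 37 fell and 1 rose, beside 28.0% of all tested genes lower, with a median of -0.55. The sum was 8396, 8544 and 8458 CPM at 7 DAP, against 12325, 12341 and 12342 CPM at 6 DAP. Of 136 genes of the DNA-copying phase (S phase) 116 fell and 7 rose, with a median of -0.42. The lists share 32 genes, which are 76.2% of the nucleosome list and 23.5% of the S phase list.

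The histone H2A gene pco099353 (Zm00001d006547) had 86.5, 92.9 and 86.3 CPM at 7 DAP, against 173, 172 and 169 CPM at 6 DAP, a log2 change of -0.95 ± 0.036 (adjusted p = 3.79e-15, edgeR). All 7 DAP values lay below all 6 DAP values. Histone genes come in near-identical copies, so single members are uncertain under unique mapping. HMGA102, a high mobility group chromatin protein of the S phase list, rose to 124, 103 and 107 CPM at 7 DAP, against 101, 83.8 and 70.7 CPM at 6 DAP, with a log2 change of 0.37. Its stages came close, as the lowest value at 7 DAP was 103 CPM and the highest at 6 DAP was 101 CPM.

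Genes of the division phase (G2/M) were mixed. Of 300 tested, 128 rose and 61 fell, beside 28.2% higher and 28.0% lower over all genes, and the median was 0.08. Kinesins, the motors that walk on the spindle, rose in 7 of 10 genes and fell in 1, with a median of 0.13 and no rise past a fold of 1.2 in the stricter test. Zm00001d006456, a homolog of the spindle assembly factor TPX2, had 93.4, 91.9 and 88 CPM at 7 DAP, against 68.9, 72.2 and 73.5 CPM at 6 DAP, a log2 change of 0.35. The microtubule list held 13 rises and 11 falls among 31 genes. TUBB6, a beta-tubulin, fell to 284, 281 and 283 CPM at 7 DAP, against 382, 373 and 386 CPM at 6 DAP.

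The glycolysis list had 32 tested genes, of which 27 fell and 3 rose, beside 28.0% of all tested genes lower. The list's median was -0.52 (range -1.64 to 1.33). Its sum was 13578, 13706 and 13645 CPM in the 7 DAP libraries, against 21962, 22059 and 22633 CPM in the 6 DAP libraries. The list took 1.42% of counts at 7 DAP, against 2.13% at 6 DAP, with no overlap between stages. In contrast to the ribosomal proteins, 6 of its falls were between 2- and 4-fold.

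Among enzymes of the main run, ENO1, an enolase, had 1981, 1985 and 1967 CPM at 7 DAP, against 4111, 4124 and 4284 CPM at 6 DAP, a log2 change of -1.08 ± 0.016 (SE, adjusted p = 4.71e-22, edgeR). GPC4, a cytosolic glyceraldehyde-3-phosphate dehydrogenase, had 1250.4, 1254 and 1239.8 CPM at 7 DAP, against 2665, 2689 and 2826 CPM at 6 DAP, a log2 change of -1.13. ALD1, the cytosolic aldolase, had 679.8, 687 and 691 CPM at 7 DAP, against 1756, 1785 and 1779 CPM at 6 DAP, a log2 change of -1.37. In each of these genes all 7 DAP values lay far below all 6 DAP values.

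TPI5, a triose phosphate isomerase, fell furthest in the list, with 90.3, 91.1 and 89.7 CPM at 7 DAP, against 283, 277 and 284 CPM at 6 DAP and a log2 change of -1.64 ± 0.029 (adjusted p = 9.38e-21, edgeR). The pyruvate kinase phm15899 (Zm00001d040446), which makes pyruvate at the end of the pathway, had 65.8, 67.2 and 63.3 CPM at 7 DAP, against 185, 188 and 192 CPM at 6 DAP. The other isoforms fell by unequal amounts, as the log2 change was -0.69 in GPC3 and -0.23 in GPC2, -1.37 in ALD2, -0.55 in the phosphoglycerate kinase PGK3, -0.68 in PFK1 and -1.26 in PFK2, both phosphofructokinases. ENO2, the enolase that the annotation calls constitutive, stood apart from ENO1. It had 1164, 1184 and 1169 CPM at 7 DAP, against 1118, 1129 and 1164 CPM at 6 DAP, with stages that overlap and a log2 change of 0.04 (adjusted p = 0.0499). That call was lost under 7 of 14 alternative settings.

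Fermentation enzymes beyond pyruvate fell too. PDC1, a pyruvate decarboxylase, had 293, 298 and 293 CPM at 7 DAP, against 882, 885 and 863 CPM at 6 DAP, a log2 change of -1.57 ± 0.021 (adjusted p = 9.55e-23, edgeR). ADH1 and ADH2, the alcohol dehydrogenases, were named after their values were seen. ADH1 had 437, 461 and 444 CPM at 7 DAP, against 1015, 1020.3 and 1049.6 CPM at 6 DAP, a log2 change of -1.20, and the change of ADH2 was -0.97.

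The genes that follow are single genes, not a list. HEX1, one of the 3 glycolysis genes that rose and a hexokinase, which adds phosphate to free hexoses, had 102, 102 and 102 CPM at 7 DAP, against 39.6, 40.2 and 41.6 CPM at 6 DAP, a log2 change of 1.33 ± 0.041 (adjusted p = 1.02e-16, edgeR). HEX5 rose less, by a log2 change of 0.49. SUS1, a sucrose synthase, had 499, 538 and 521 CPM at 7 DAP, against 185, 185 and 189.7 CPM at 6 DAP, a log2 change of 1.48. SUS2 and the sucrose synthase 3 homolog 1d029087 (Zm00001d029087) rose by 1.44 and 1.71, so all of these sucrose synthase genes were between 2- and 4-fold higher. SH1, the endosperm sucrose synthase best known from shrunken kernels, was named after its values were seen and rose past 4-fold, to 469 ± 13.8 CPM at 7 DAP, against 60.3 ± 0.0642 CPM at 6 DAP (SD, n = 3 each).

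Both genes for pyruvate orthophosphate dikinase, which links pyruvate and phosphoenolpyruvate, were higher. PDK1 had 623, 649 and 642 CPM at 7 DAP, against 218, 225 and 222 CPM at 6 DAP, a log2 change of 1.52. PDK2 had 3686, 3734 and 3723 CPM at 7 DAP, against 1849, 1899 and 1869.9 CPM at 6 DAP, a log2 change of 0.99 ± 0.015 (adjusted p = 4.88e-22, edgeR). SODH1, a sorbitol dehydrogenase, which turns sorbitol to fructose, had 3265, 3335 and 3423 CPM at 7 DAP, against 1916, 1850.3 and 1585 CPM at 6 DAP. The 6 DAP values of SODH1 were spread more widely than those of PDK2, though all lay below the 7 DAP values.

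**Figure D3:**
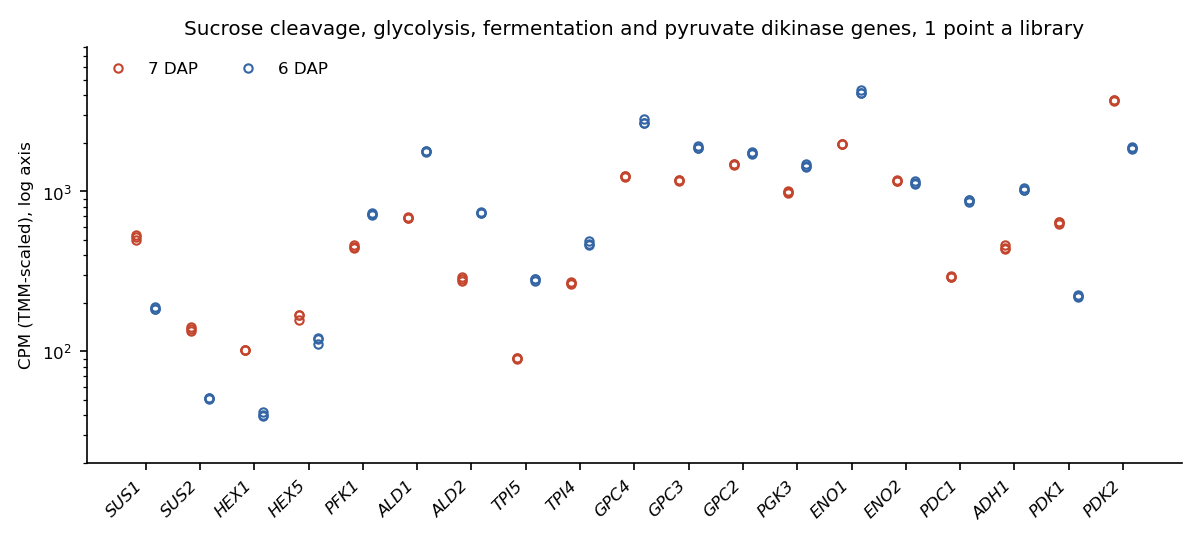
CPM of 19 genes of sucrose cleavage, glycolysis, fermentation and pyruvate dikinase in each library (log axis, 1 point a library, 7 DAP in red left of 6 DAP in blue). SUS1, SUS2, HEX1, PDK1 and PDK2 were higher in every 7 DAP library, ENO1, GPC4, ALD1, TPI5, PDC1 and ADH1 were lower in every one, and ENO2 overlapped between stages.

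Mitochondrial genes fell together and by little, beside 28.0% of all tested genes lower and 28.2% higher. Over the lists of respiratory complexes, ATP synthase, matrix, outer membrane and tricarboxylic acid cycle, 111 of 140 genes fell and 5 rose, with a median of -0.24. That median was near the -0.23 of all tested genes with a mean of 100 to 1000 CPM, of which 68.4% were lower. The lists were not matched for abundance, so a fall beyond that of abundant genes was not tested. All 15 tested genes of the mitochondrial ATP synthase fell, by a median of -0.25, and none by 2-fold. ATP2, its beta subunit, had 849, 864 and 859 CPM at 7 DAP, against 1198, 1205 and 1188 CPM at 6 DAP, a log2 change of -0.48. Of 29 complex I genes 16 fell and 2 rose, with a median of -0.11 that became 0.00 with library totals. The stricter test called 3 of them lower and 1 higher.

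Matrix and outer membrane genes changed more than the respiratory complexes. Among 38 matrix genes 36 fell, by a median of -0.31. CPN1, a chaperonin that folds imported proteins, had 487, 487 and 479 CPM at 7 DAP, against 793, 812 and 821 CPM at 6 DAP, a log2 change of -0.74 ± 0.021 (adjusted p = 2.54e-17, edgeR). VDAC1B, a pore of the outer membrane, had 127, 125 and 124 CPM at 7 DAP, against 195, 204 and 200.3 CPM at 6 DAP. In both genes the stages were separate by more than the spread of either. In the tricarboxylic acid cycle 19 of 25 genes fell and 3 rose. The malate dehydrogenases MDH2 and MDH3 fell, with log2 changes of -0.54 and -0.67, whereas SUDH4, a subunit of succinate dehydrogenase, rose to 140.1, 146 and 142 CPM at 7 DAP, against 124, 124 and 124 CPM at 6 DAP. The aconitase ACO1 was not called, with 1265, 1282 and 1279 CPM at 7 DAP, against 1308, 1300.0 and 1284 CPM at 6 DAP, and the sign of its log2 change of -0.02 turned with library totals.

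Nuclear genes listed for the plastid, where starch is made, did not follow the mitochondrial lists. Of 18 tested, 9 rose and 4 fell, beside 28.2% higher and 28.0% lower over all genes, with a median of 0.15. Of 208 genes of the mitochondrial genome in the table only 11 passed the filter on low counts, and of 157 of the plastid genome only 1 did, so organelle genomes are left undescribed.

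The pooled lists of secretory compartments, proton pumps and peroxisome were lower on balance, beside 28.0% of all tested genes lower and 28.2% higher. Over the lists of endoplasmic reticulum (ER), ER stress, protein targeting to the ER, Golgi, vesicles, proton pumps and peroxisome, 165 of 250 genes fell and 24 rose, with a median of -0.23. Of all tested genes with a mean of 100 to 1000 CPM, 68.4% were lower, also with a median of -0.23. The lists were not matched for abundance, so no fall particular to these compartments is drawn. The proton pump lists also hold ATP2, the mitochondrial ATP synthase subunit described above. In the Golgi apparatus list 32 of 42 genes fell and 0 rose in edgeR, at an unadjusted p under 0.05 or in DESeq2, with a median of -0.26. 1d013751 (Zm00001d013751), a homolog of UDP-arabinopyranose mutase, which supplies arabinose for cell walls, had 308, 317 and 319 CPM at 7 DAP, against 481, 485 and 478 CPM at 6 DAP, a log2 change of -0.62. Subunits of the vacuolar ATPase fell in 14 of 17 genes, by a median of -0.20, and the stricter test called 4 lower.

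Within the ER the directions parted by gene. PDI1, a protein disulfide isomerase that helps secreted proteins fold, had 1391, 1419 and 1405 CPM at 7 DAP, against 2069, 2074 and 2127 CPM at 6 DAP, a log2 change of -0.57 ± 0.017 (adjusted p = 4.43e-17, edgeR). pco109407 (Zm00001d028201), of the SecY family of protein channels, had 354, 369 and 356 CPM at 7 DAP, against 268, 262 and 284 CPM at 6 DAP, a log2 change of 0.41. The ER gene 1d007504 (Zm00001d007504) fell to 113, 118 and 118 CPM at 7 DAP, against 333, 338 and 342 CPM at 6 DAP. VPP7, the vacuolar proton pyrophosphatase that also marks the AL, rose to 649.7, 659.7 and 646 CPM at 7 DAP, against 487, 479 and 493 CPM at 6 DAP. In its proton pump list 10 of the 15 genes fell and 1 rose. That list also holds genes of the ATP synthase and vacuolar ATPase lists, such as ATP2 and 1d053010 (Zm00001d053010). It is therefore not a family of pyrophosphatases.

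Protein turnover and folding had no single direction, where 28.2% of all tested genes were higher and 28.0% lower. Proteasome genes fell in 11 of 13, by a median of -0.33, whereas ubiquitin transferases rose in 18 of 48 and fell in 6, with a median of 0.16. Peptidases fell in 22 of 30 genes and rose in 7, with a median of -0.24, but their sum was higher at 7 DAP, 8350.2, 8500.3 and 8474 CPM, against 7542, 7519.8 and 7460.4 CPM at 6 DAP. SBT1, a subtilisin-type protease that also marks the AL, alone gained more CPM than the gap, with 3891, 3977 and 3957 CPM at 7 DAP, against 2556, 2547 and 2594 CPM at 6 DAP and a log2 change of 0.62 ± 0.014 (adjusted p = 9.63e-19, edgeR). CCP4, a cathepsin B-like protease, fell to 52.7 ± 1.88 CPM at 7 DAP, against 117 ± 3.19 CPM at 6 DAP (SD, n = 3 each).

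Heat response genes rose more often than they fell, 17 against 5 of 36, beside 28.2% higher and 28.0% lower over all tested genes. The list's median was 0.27, and its summed level went the other way. The sum was 5183, 5207 and 5119 CPM at 7 DAP, against 5850.0, 5921 and 6013 CPM at 6 DAP. HSP70-4, a chaperone in that list, had 2644, 2669.7 and 2614 CPM at 7 DAP, against 3717, 3749 and 3822 CPM at 6 DAP, a log2 change of -0.51. HSP18F, a small heat shock gene, had 19.6, 21.3 and 20.5 CPM at 7 DAP, against 9.69, 7.81 and 5.59 CPM at 6 DAP, a log2 change of 1.39. Both had stages that did not overlap, and the smaller gene varied more between the 6 DAP libraries. HSFTF11, a heat stress transcription factor, rose by 0.67.

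Glutathione transferases attach glutathione to reactive compounds, and many of the listed genes rose moderately. Of 8 tested genes 7 rose and 1 fell, where 28.2% of all tested genes rose. Among the rises 5 were between 2- and 4-fold, beside 4.86% of all tested genes. The list summed to 799, 830.4 and 839 CPM at 7 DAP, against 463, 466 and 479 CPM at 6 DAP. GST6 had 147, 145 and 155 CPM at 7 DAP, against 42, 40.5 and 45.2 CPM at 6 DAP, a log2 change of 1.81 ± 0.044 (adjusted p = 2.26e-18, edgeR). GST22 had 72.5, 74.1 and 79.3 CPM at 7 DAP, against 20.6, 20.5 and 22.2 CPM at 6 DAP, a log2 change of 1.84. All libraries at 7 DAP were over 3 times as high as any at 6 DAP in both genes.

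The other members were named after their values were seen, except the one that fell. GST2, GST48 and GST5 rose by log2 changes of 1.49, 1.49 and 1.12. GST1 rose by only 0.39, with 349, 367 and 361 CPM at 7 DAP, against 272, 274 and 279 CPM at 6 DAP. GST31 was near 0, with 0.846, 1.29 and 1.74 CPM at 7 DAP, against 0, 0.128 and 0 CPM at 6 DAP, so no fold is given. Zm00001d033707 fell to 25.8, 23.8 and 24.3 CPM at 7 DAP, against 35.9, 36.8 and 39.6 CPM at 6 DAP. In protoplasts the list summed to 3189.8 CPM at 7 DAP, against 2974 CPM at 6 DAP, and in the undigested pair to 719.6 CPM at 7 DAP, against 384 CPM at 6 DAP. Protoplasts were thus high at both stages, and the list's median change there was 0.07, beside 1.49 in the replicated libraries.

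Other stress lists were divided, and their counts are set beside 28.2% higher and 28.0% lower over all tested genes. Response to oxidative stress had 12 rises and 13 falls among 36 genes. Its largest rise was 1d022278 (Zm00001d022278), the 1-Cys peroxiredoxin PER1, known in cereals from embryo and aleurone, with 142, 151 and 144 CPM at 7 DAP, against 39.9, 38.1 and 37.2 CPM at 6 DAP, a log2 change of 1.92. NDK1, a nucleoside diphosphate kinase, fell in the same list to 298 ± 8.09 CPM at 7 DAP, against 462 ± 16.6 CPM at 6 DAP (SD, n = 3 each). Response to osmotic stress had 11 rises and 3 falls among 20 genes, 6 of the rises between 2- and 4-fold, and 9 of its genes are also heat response genes. The embryo marker sum moved the same way as these rises, as given above, and its part in them was not tested.

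**Figure D4:**
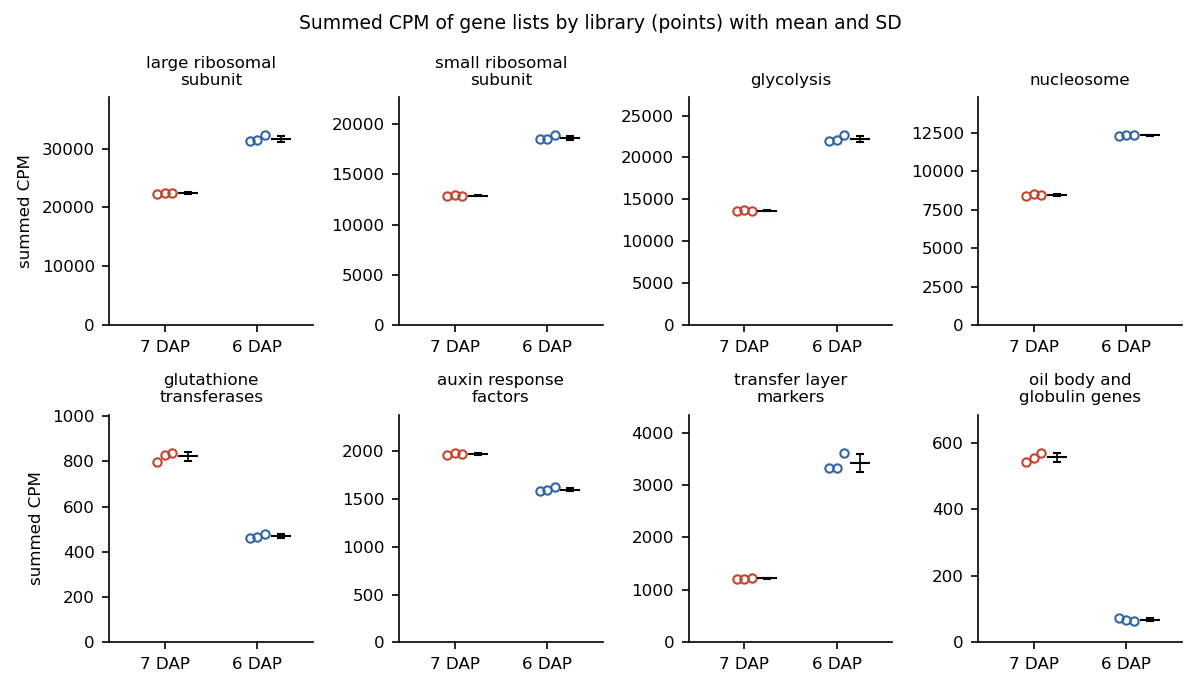
Summed CPM of 8 gene lists in each library (points, 7 DAP left of 6 DAP, axes from 0) with the mean and SD. Ribosomal protein, glycolysis, nucleosome and transfer layer sums were lower in all 7 DAP libraries, and glutathione transferase, auxin response factor and oil body and globulin sums were higher in all.

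Jasmonate is made from membrane fatty acids through lipoxygenase, allene oxide synthase, allene oxide cyclase and 12-oxo-phytodienoic acid reductase. Of 40 tested biosynthesis genes 23 rose and 8 fell, 7 of the rises between 2- and 4-fold, with a median of 0.45. Over all tested genes 28.2% were higher and 28.0% lower. AOC1, the cyclase, had 103, 102 and 99.3 CPM at 7 DAP, against 39, 36.3 and 30.7 CPM at 6 DAP, a log2 change of 1.51 ± 0.058 (adjusted p = 5.49e-15, edgeR). OPR2, a reductase, had 22.8, 25.6 and 26.5 CPM at 7 DAP, against 8.11, 7.87 and 7.49 CPM at 6 DAP. The synthase AOS1 and the lipoxygenase TS1 rose by 0.87 and 0.51. AAS5 fell most in the list, with 12, 13.6 and 12.9 CPM at 7 DAP, against 48.2, 48.4 and 51.2 CPM at 6 DAP, a log2 change of -1.93.

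Auxin response factors (ARF) are the DNA-binding proteins through which auxin switches genes. Of 32 tested 18 rose and 0 fell in edgeR, with 1 lower at an unadjusted p under 0.05 and 0 in DESeq2, where 28.2% of all tested genes rose and 28.0% fell. Their sum was 1958, 1983 and 1971 CPM at 7 DAP, against 1582, 1591 and 1620.2 CPM at 6 DAP. ARFTF2 had 13.5, 15.6 and 17.1 CPM at 7 DAP, against 5.8, 4.73 and 5.77 CPM at 6 DAP, a log2 change of 1.50. ARFTF14 had 53, 56.6 and 56.6 CPM at 7 DAP, against 30.9, 27.2 and 29.2 CPM at 6 DAP, a log2 change of 0.92. ARFTF36, named after its values were seen, had 292, 302 and 294 CPM at 7 DAP, against 199.7, 204 and 208 CPM at 6 DAP. The stages did not overlap in any of the 3, and most ARF changes were under 2-fold. The AUX/IAA genes, which hold ARF proteins in check, had 4 rises and 6 falls among 20.

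The other hormone lists are set against 28.2% of all tested genes higher and 28.0% lower. Jasmonate response rose in 12 of 25 genes and fell in 3, with a median of 0.20, and 4 of the rises were 4-fold or more. EREB198 had 17.2, 19.7 and 19.5 CPM at 7 DAP, against 5.72, 5.95 and 5.83 CPM at 6 DAP, a log2 change of 1.70. Gibberellin biosynthesis rose in 6 of 14 genes and fell in 1, and brassinosteroid biosynthesis fell in 3 of 5. Ethylene biosynthesis, with 4 rises and 5 falls among 16 genes, and cytokinin biosynthesis, with 4 rises and 4 falls among 16, had shares near those of all genes. Abscisic acid biosynthesis rose in 3 of 11 genes, also near that share, and the other 8 were not called. IPT2, an isopentenyltransferase that starts cytokinin synthesis, fell to 28.4, 30.2 and 32.5 CPM at 7 DAP, against 109, 106 and 105 CPM at 6 DAP, a log2 change of -1.81 ± 0.048 (adjusted p = 8.21e-18, edgeR). Many genes of these lists were too low to be tested, as 13 of 33 auxin biosynthesis and 16 of 45 cytokinin biosynthesis genes passed the filter.

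Transcription factor families held calls in both directions, as did all tested genes, of which 28.2% were higher and 28.0% lower. Of the NAC family 9 of 20 rose and 6 fell, of bZIP 8 of 26 rose and 3 fell, of WRKY 8 of 21 rose and 4 fell, and of MYB and MYB-related factors 4 of 21 rose and 8 fell. NACTF6 rose to 61.1, 64.3 and 62.5 CPM at 7 DAP, against 32.3, 32.2 and 27.9 CPM at 6 DAP, a log2 change of 1.02. WRKY72 and the bZIP factor GBF1 rose by 0.84 and 0.92. MYBR29 and MYBR19, MYB-related factors that the study linked to the transfer layer, fell, with log2 changes of -1.56 and -1.76.

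Homeodomain leucine zipper (HD-ZIP) factors, many of which act in outer cell layers, had 4 of 8 higher and 3 lower. HB118 had 24.3, 26.1 and 25.5 CPM at 7 DAP, against 92, 93.4 and 92 CPM at 6 DAP, a log2 change of -1.87 ± 0.046 (adjusted p = 2.74e-18, edgeR). OCL1, an outer cell layer gene, had 135, 145 and 142 CPM at 7 DAP, against 102, 105 and 98.6 CPM at 6 DAP, a log2 change of 0.46. HB91 rose by 0.65. The stages did not overlap in these genes.

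Lists of genes that represent clusters 0 to 3 of the study's single-cell data were used here, and its other clusters of the transfer layer, starchy endosperm and aleurone were not analysed here. Genes of cluster 2, assigned to the transfer layer, fell in 328 of 385 and rose in 16, and 61 fell by 2- to 4-fold, beside 1.74% of all tested genes. That list took 6.44% of counts at 7 DAP, against 8.94% at 6 DAP. The median was -0.47. Starchy endosperm cluster 1 had 139 rises and 318 falls among 576 genes, beside 28.2% higher and 28.0% lower over all tested genes. Aleurone cluster 0 had 179 rises and 136 falls among 418 genes, and aleurone cluster 3 had 97 rises and 325 falls among 523. The cluster lists were not matched for abundance, and of all tested genes with a mean of 100 to 1000 CPM 68.4% were lower.

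The markers of each cell type are a few genes, and they did not all move as the cluster lists above. The BETL markers fell, as did most genes of the transfer layer list. The AL markers rose, whereas aleurone cluster 3 had 97 rises and 325 falls. The other aleurone list had more rises than falls. Of the 5 SE markers 4 rose, whereas starchy endosperm cluster 1 had 139 rises and 318 falls. The 6 BETL markers summed to 1208, 1212 and 1236 CPM at 7 DAP, against 3321, 3332 and 3617 CPM at 6 DAP, and all fell, 5 of them by 2- to 4-fold. The 4 AL markers summed to 9473, 9711 and 9518 CPM at 7 DAP, against 5932, 5914 and 6135 CPM at 6 DAP, and all rose by less than 2-fold. All 3 EAS markers rose 2- to 4-fold, among them the sugar exporters SWEET15A and SWEET14A with log2 changes of 1.66 and 1.58 and MS8 with 1.39. Of the 5 ESR markers all rose, 4 of them 4-fold or more. Of the 5 SE markers, SH2, ZP27 and DE18 rose over 4-fold. TAR1 rose to 2428, 2498 and 2496 CPM at 7 DAP, against 1940.0, 1928 and 1954 CPM at 6 DAP, and FL3 fell to 1201, 1228 and 1182 CPM at 7 DAP, against 2041, 2055 and 2186 CPM at 6 DAP.

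Of the 10 genes under 4-fold with the largest losses of CPM, ENO1, GPC4 and ALD1 belong to glycolysis, ELFA9 to translation and HSP70-4 to protein folding, and 3 others encode secreted defence-type or lipid transfer proteins. BAP2, a basal layer antifungal protein, had 466, 466 and 475 CPM at 7 DAP, against 1427, 1436 and 1518 CPM at 6 DAP, a log2 change of -1.64 ± 0.023 (adjusted p = 1.25e-22, edgeR). pco073740 (Zm00001d052759), a nonspecific lipid transfer protein and BETL marker, had 748, 758 and 766 CPM at 7 DAP, against 1988, 2002 and 2139 CPM at 6 DAP, a log2 change of -1.43. 2G046532 (Zm00001d019277), a homolog of defensin-like protein 6, had 1663, 1669 and 1684 CPM at 7 DAP, against 2791, 2824 and 2979 CPM at 6 DAP. In all 3 genes the 7 DAP values were close together and below every 6 DAP value.

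pco073740 also set the sum of the lipid transfer protein list. Of 7 genes 4 rose and 3 fell and the median was 1.01, yet the sum was 1699.9, 1728 and 1774 CPM at 7 DAP, against 2826, 2833 and 2959 CPM at 6 DAP. LTPG1 and PLT1 rose in that list by 1.15 and 1.01. Other large losses were 1d007187 (Zm00001d007187), a hydroxyproline-rich glycoprotein, with 648, 659 and 669 CPM at 7 DAP, against 1796, 1796 and 1788 CPM at 6 DAP, and GRP1, a glycine-rich RNA-binding protein, with 4056, 4205 and 4137 CPM at 7 DAP, against 5089, 4976 and 5135 CPM at 6 DAP. The loss of GRP1 was of 0.29 on the log2 scale, the smallest change among the 10 largest losses.

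The largest gain under 4-fold belonged to 1d022421 (Zm00001d022421), another hydroxyproline-rich glycoprotein. It had 14609.6, 15016 and 14873 CPM at 7 DAP, against 10178, 10222 and 10101 CPM at 6 DAP, a log2 change of 0.54 ± 0.012 (adjusted p = 1.72e-19, edgeR). AL9, an aleurone gene, had 4650.3, 4778 and 4631 CPM at 7 DAP, against 2684, 2685 and 2835 CPM at 6 DAP, a log2 change of 0.78. A cytochrome P450 gene, cl377_-3 (Zm00001d050323), had 1099, 1132 and 1143 CPM at 7 DAP, against 471, 485 and 462 CPM at 6 DAP. HFI1, an inhibitor of Hageman factor and trypsin-type proteases, had 669, 693 and 682 CPM at 7 DAP, against 222, 226 and 231 CPM at 6 DAP, a log2 change of 1.59. LEG1, a legumin-type storage protein gene, had 745, 757 and 762 CPM at 7 DAP, against 294, 292 and 285 CPM at 6 DAP, a log2 change of 1.38. The stages did not overlap in any of these genes.

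Few genes could be placed as flat. The 95% interval of the log2 change lay within 0.1 of 0 for 184 genes. Library totals moved the median of all genes by 0.12, more than that window, so which genes count as flat depends on the scaling. The most abundant of them were ACO1, ENO2, the ketol-acid reductoisomerase homolog 1d044035 (Zm00001d044035), UBI2 and 1d025801 (Zm00001d025801). UBI1 is a polyubiquitin gene that the study took as uniform over cell clusters, which is not a claim about stages. UBI1 had 642, 646 and 640.0 CPM at 7 DAP, against 702, 693 and 706 CPM at 6 DAP, a log2 change of -0.12 ± 0.019 (adjusted p = 1.64e-05, edgeR), which was -0.01 and no longer called with library totals. UBI2 had 735, 759 and 757 CPM at 7 DAP, against 718, 721 and 729.7 CPM at 6 DAP, a log2 change of 0.05.

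The same stages were also covered by an undigested pair and a protoplast pair, with 1 library a stage in each, compared on log2(CPM + 1) without a test. CPM of these pairs were scaled by library totals alone, whereas those of the replicated libraries were TMM-scaled. Among all tested genes 39.6% were lower and 60.4% higher at 7 DAP in the undigested pair. In the protoplast pair 53.0% were lower and 46.8% higher. The medians over all tested genes were 0.09 in the undigested pair and -0.02 in the protoplast pair. Ribosomal proteins were lower in 146 of 148 genes in the undigested pair and in 143 of 148 in the protoplast pair. All 17 elongation factors were lower in both. Of 32 ARF genes 31 were higher in the undigested pair and 25 in the protoplast pair. The glycolysis median was -0.44 in the undigested pair and -0.19 in the protoplast pair. PDC1 changed by -1.49 in the undigested pair and by 0.60 in the protoplast pair, and HEX1 by 1.34 in the undigested pair and 0.51 in the protoplast pair. Of the sucrose synthases above, SH1 changed by 3.09 in the undigested pair and by -1.92 in the protoplast pair, a change of opposite sign. In the protoplast pair SUS1 changed by 1.14, SUS2 by -0.19, and 1d029087 by -0.28, and in the undigested pair all 3 were higher at 7 DAP.

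Several lists had another sign in protoplasts. The nucleosome median was -0.49 in the undigested pair and 0.25 in the protoplast pair, and the S phase median was -0.32 in the undigested pair and 0.13 in the protoplast pair. The median of the BETL markers was -1.42 in the undigested pair and 0.06 in the protoplast pair. HFI1 and LEG1 changed by -0.54 and -0.58 in protoplasts. With 1 library a stage, the difference between intact tissue and protoplasts could not be tested, and digestion, the cells that survive it and the library cannot be told apart.

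**Figure D5:**
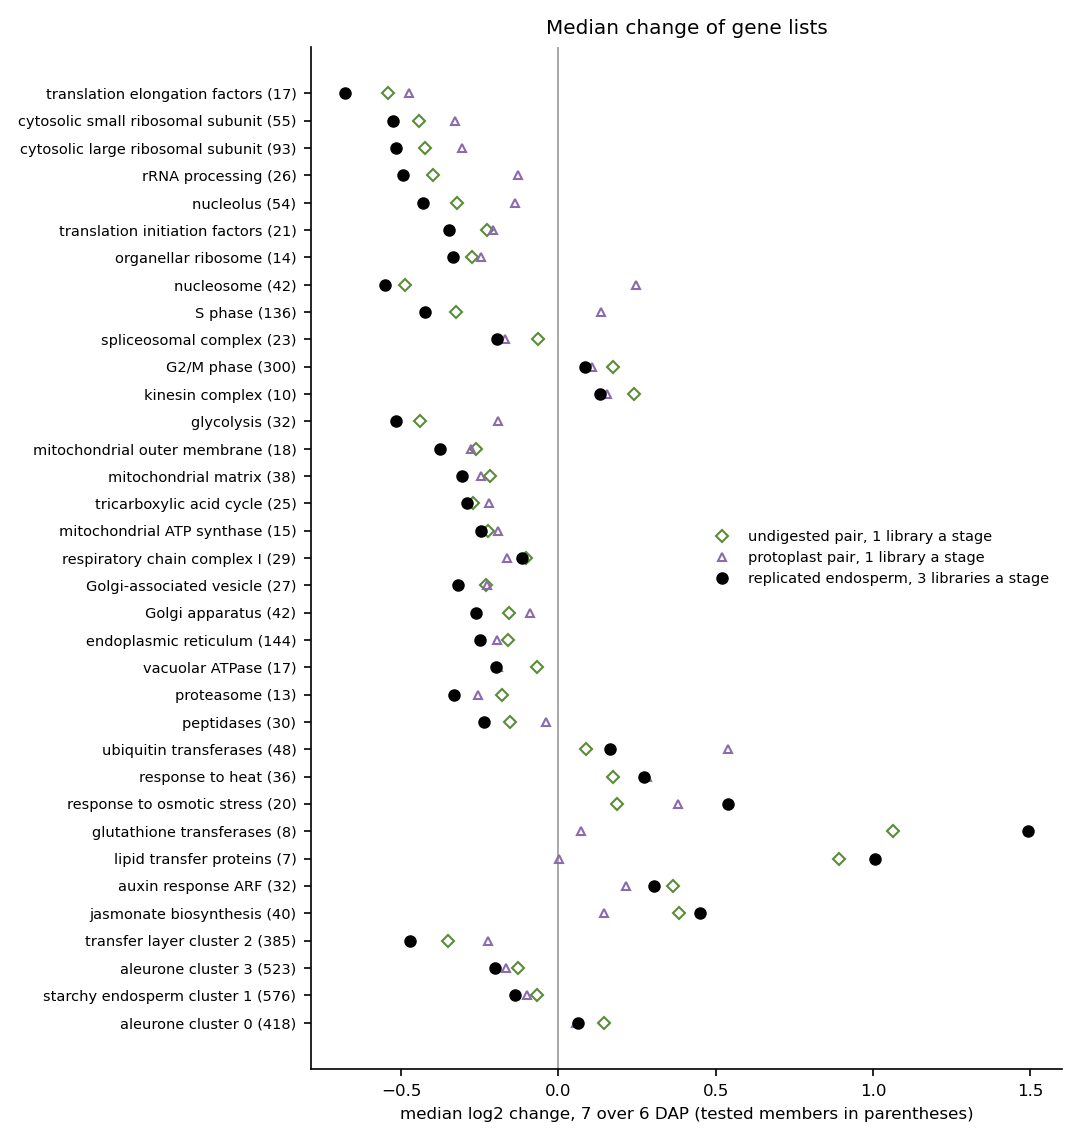
Median log2 change, 7 over 6 DAP, of 35 gene lists (tested members in parentheses) in the replicated libraries (black points), the undigested pair (green diamonds) and the protoplast pair (purple triangles, 1 library a stage in both pairs). Protein synthesis lists lay below 0 in all 3, while the nucleosome and S phase lists lay below 0 in intact endosperm and above 0 in protoplasts.

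Over the 77 lists with at least 5 tested genes, more than 50% of the members fell in 35 and more than 50% rose in 8. In 13 lists the median changed sign with library totals, among them complex I, ER stress, plasma membrane, cell wall proteins, transporters, amino acid biosynthesis, ERF and MYB factors and AUX/IAA. No direction is drawn from those medians. No median of the protein synthesis, nucleosome, S phase, glycolysis, ATP synthase, glutathione transferase, jasmonate biosynthesis or ARF lists changed sign.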

How the data were processed

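Bulk RNA-seq reads were trimmed by the authors with Trimmomatic 0.39, aligned with STAR to the B73 v4 genome and counted on genes with featureCounts 2.0.1, and raw counts of uniquely mapped reads were deposited for 45953 genes. The strand setting of the counting is not given in the sources used here, so overlapping and antisense genes cannot be separated. The labels name a SMARTER library kit.

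Genes kept by filterByExpr were tested with edgeR 4.0.16 in R 4.3.3, by the quasi-likelihood F test with TMM scaling and Benjamini-Hochberg adjustment over all 21486 genes, 3 libraries at 7 DAP against 3 at 6 DAP. DESeq2 1.42.0, other scalings, filters, a fold of 1.2 in glmTreat, a block for the replicate number and fits without each library in turn were the alternatives. The fit was checked on simulated counts. The 4 unreplicated libraries were compared on log2(CPM + 1), with CPM by library totals and no TMM.

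Members and lists were chosen with earlier results of these data known. Named genes are, for each list, up to 2 with the largest rise and 2 with the largest fall under 4-fold at a mean of at least 10 CPM and with stages that do not overlap, the 10 largest gains and losses of CPM, the 10 smallest p-values between 2- and 4-fold in each direction, the 5 most abundant flat genes, UBI1 and the cell type markers. From this set the text describes those that illustrate each list. Genes outside it are said to be named after their values were seen or are isoforms set beside a named gene. The cluster lists were chosen by the study on single cells of protoplasts. Gene names came from the supplementary tables, which named 7051 genes.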

Additional observations from a re-analysis of the deposited data

Results flagged for a closer look

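In summed CPM, 12 lists moved one way in all replicated libraries and the other way in the protoplast pair. The replicated values were TMM-scaled and the protoplast values were scaled by library totals alone. Each stage has 1 library in that pair, so the difference was not tested. Each value is the log2 of summed CPM, 7 over 6 DAP. Nucleosome genes were at 0.25 in protoplasts and -0.54 in the replicated libraries, and S phase genes were at 0.21 in protoplasts and -0.47 in the replicated libraries. The BETL markers were at 0.28 in protoplasts and -1.49 in the replicated libraries, and the SE markers were at -0.20 in protoplasts and 0.51 in the replicated libraries. Lipid transfer proteins were at 0.33 in protoplasts and -0.73 in the replicated libraries. Brassinosteroid biosynthesis was at 0.13 in protoplasts and -0.96 in the replicated libraries, and the AUX/IAA genes were at 0.71 in protoplasts and -0.13 in the replicated libraries. For some of these lists the replicated direction, or only the separation of the stages, depended on the scaling. As a share of all counts, plasma membrane anchored genes took 0.361% at 7 DAP, against 0.350% at 6 DAP, extracellular region genes 0.116% at 7 DAP, against 0.112% at 6 DAP, and glycoside hydrolases 0.384% at 7 DAP, against 0.377% at 6 DAP, so that the means moved as in protoplasts, with stages that overlapped (exact two-sided permutation p = 0.2, 0.2 and 0.3 in that order). The AUX/IAA genes took 0.0198% at 7 DAP, against 0.0200% at 6 DAP, so their mean stayed lower, but the stages overlapped as well (p = 0.6, exact permutation test). With TMM in the replicated libraries alone, extracellular region genes were at 0.43 in protoplasts and -0.06 in the replicated libraries. Plasma membrane anchored genes were at 0.20 in protoplasts and -0.07 in the replicated libraries. Glycoside hydrolases were at 0.15 in protoplasts and -0.09 in the replicated libraries. Calcium binding genes were at 0.15 in protoplasts and -0.18 in the replicated libraries, and the MYB and MYB-related factors were at 0.18 in protoplasts and -0.31 in the replicated libraries.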

How the results depend on the processing

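The direction of the shift by list held under most settings, while counts of calls moved with the scaling and with a required fold. Against a fold of 1.2, glmTreat called 3498 genes higher and 2704 lower at 7 DAP, in place of 6067 and 6025, and more than 50% of the members then rose in 4 lists and fell in 15, in place of 8 and 35. With library totals the calls were 8360 higher and 4158 lower, and more than 50% rose in 17 lists and fell in 24. Leaving out each replicate in turn gave 5494 to 5894 genes higher and 5429 to 5861 lower, 1017 to 1067 higher and 371 to 392 lower between 2- and 4-fold, and 6 to 9 lists mostly higher and 32 to 35 mostly lower. The replicate number as a block gave 6055 higher and 5945 lower, 1037 and 371 between 2- and 4-fold, and 8 lists mostly higher and 33 mostly lower. Samples with the same number did not deviate together (r of 0.069, 0.014 and -0.002), so the numbers were not taken to pair them. Of the values of single named genes under all alternatives, 3821 kept their direction and side of the threshold, 58 lost the call, 8 gained it and 3 changed sign. The sign changes were ACO1, at 0.091 with library totals and 0.010 with upper-quartile factors, and umc1336 (Zm00001d024754) of ethylene biosynthesis, at 0.054 with library totals and -0.062 with TMM. The cause of these changes was not tested. Depth limits the genes under 1 CPM, and gene families of near-identical copies are read through unique reads alone.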
